A study of Homo sapiens with 12 samples.

Results

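The HOXA cluster genes HOXA3, HOXA4, HOXA5, HOXA6, HOXA7, HOXA9, HOXA10, HOXA11 and HOXA13 were measured in MOLM-13 leukaemia cells. They were taken from the counts by Ensembl identifier and make up 9 of the 60668 genes listed in each library. They encode homeodomain transcription factors and lie head to tail on the minus strand of chromosome 7, between positions 27106184 and 27200106 of GRCh38, a span of 93923 bases. HOXA3 (ENSG00000105997.22) stands towards the 3′ end of the cluster and HOXA13 (ENSG00000106031.9, from 27193503 to 27200106) at its 5′ end, with HOXA9 (ENSG00000078399.18) from 27162435 to 27175180 between them, all protein-coding and placed by GENCODE 29. The annotated HOXA3 gene spans HOXA4, HOXA5 and HOXA6, and a read on exon bases that genes of the same strand share is counted for none of them. The share of exon bases free of such overlap was 69.0% for HOXA4, 84.1% for HOXA9, 90.1% for HOXA10, 90.8% for HOXA3, 95.6% for HOXA6 and 100% for the other members.

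HOX genes are switched on in the order of their place in the cluster during development and set position along the body axis. In blood formation the HOXA genes are active in stem and progenitor cells and are shut down as cells mature. Fusions of MLL1 (gene KMT2A) bind chromatin together with menin and keep HOXA9 and its cofactor gene MEIS1 active in acute leukaemia, where HOXA9 sustains self-renewal.

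MOLM-13 is an established human acute monocytic leukaemia line. Its genome holds the fusion MLL-AF9 and the activated receptor FLT3-ITD, and all groups share both. Cells were treated for 8 days with MI-3454 and gilteritinib together (the combination), with MI-3454, with gilteritinib, or with DMSO, the vehicle. MI-3454 blocks the contact between menin and MLL1, and gilteritinib inhibits the FLT3 kinase; the labels give no dose. Each group held 3 libraries of ribosome-depleted total RNA from cultures seeded in triplicate, so p-values measure the spread between cultures of 1 line. The compound's number in the treatment label varies between libraries of the groups with MI-3454, and the titles, which name 1 compound, were followed.

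Library totals over genes were 6472940 to 11261893 counts with the combination, 8983203 to 9930198 with MI-3454, 9028112 to 12051457 with gilteritinib and 9020916 to 11147953 with DMSO. Reads placed once that HTSeq assigned to no gene feature can include reads in introns or on the opposite strand of a gene. They made up 28.5% to 36.5% of uniquely placed reads with the combination and 17.4% to 25.5% with MI-3454. Their share was 15.6% to 17.8% with gilteritinib and 16.6% to 20.4% with DMSO. RN7SL1, a small cytoplasmic RNA, took 1.17% to 1.66% of counts with the combination, 2.02% to 4.56% with MI-3454, 2.22% to 2.88% with gilteritinib and 2.31% to 4.27% with DMSO. MI-3454 replicate 3 and DMSO replicate 2 were the highest. MI-3454 replicate 3, gilteritinib replicate 2 and DMSO replicate 2, each the highest in RN7SL1 of its group, stood apart from the other libraries of the group. The chi-square per degree of freedom was 22.8 and 29.1 for the MI-3454 pairs with that library and 3.92 for the other, 18.4 and 23.4 against 2.13 for gilteritinib, and 19.4 and 26.0 against 5.91 for DMSO. Calls lost without the library highest in each group are given beside the results. All 10 myeloid markers examined (CD33, SPI1, CEBPA, CEBPE, LYZ, CSF1R, ITGAM, CD14, MPO and FLT3) were detected. Their summed level was 14608 to 16288 counts per 1e6 counts (CPM) with the combination and 9594 to 10841 with MI-3454. It was 2645 to 2786 with gilteritinib and 2309 to 2445 with DMSO. LYZ alone had a mean of 13184.5 CPM with the combination and 7767 with MI-3454, against 684 with gilteritinib and 426 with DMSO. The difference in the sum therefore mainly follows LYZ and does not by itself describe the whole panel. At an edgeR adjusted p under 0.05, 8 of the 10 markers rose and 1 fell with the combination, beside 29.2% and 28.4% of all genes. With MI-3454 6 rose and 1 fell, beside 10.1% and 8.95%. With gilteritinib 4 rose and 1 fell, beside 6.92% and 8.18%. CD14, at most 0.583 CPM with DMSO and 0.0856 with gilteritinib, passed the expression filter only through the groups with MI-3454. Of 11 markers of T, B, erythroid, epithelial, stromal and endothelial cells, MS4A1, HBB and COL3A1 were at 0 in all 12 libraries. The summed CPM of these 11 was 472 to 490 with the combination and 296 to 297 with MI-3454. It was 226 to 253 with gilteritinib and 174 to 207 with DMSO. Most of it came from PECAM1, while the other endothelial marker, CDH5, had 1 count in the 12 libraries together. Both sums and the share of reads assigned to no gene feature were highest with the combination. That group had the lowest summed HOXA level, though HOXA3, HOXA4, HOXA6 and HOXA13 were lowest with MI-3454. The part of these sums and reads in the results below was not tested. In bulk RNA, fewer cells that express a gene and less of its RNA per cell cannot be told apart.

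The start regions of a strongly lowered, the most highly expressed and a gene that passed with neither the combination nor MI-3454 are shown as reference for the results. Each is the 250 bases before the RefSeq start on the minus strand, written 5′ to 3′ in build GRCh38.p14, with CG dinucleotides in capitals: HOXA6 at chr7:27147775-27148024, HOXA9 at chr7:27165538-27165787 and HOXA13 at chr7:27200092-27200341.
HOXA6: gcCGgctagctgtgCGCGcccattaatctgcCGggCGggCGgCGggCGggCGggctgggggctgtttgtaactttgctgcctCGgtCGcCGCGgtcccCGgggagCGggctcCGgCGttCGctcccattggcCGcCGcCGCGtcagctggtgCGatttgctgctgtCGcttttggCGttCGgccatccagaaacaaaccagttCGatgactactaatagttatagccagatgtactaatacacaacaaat
HOXA9: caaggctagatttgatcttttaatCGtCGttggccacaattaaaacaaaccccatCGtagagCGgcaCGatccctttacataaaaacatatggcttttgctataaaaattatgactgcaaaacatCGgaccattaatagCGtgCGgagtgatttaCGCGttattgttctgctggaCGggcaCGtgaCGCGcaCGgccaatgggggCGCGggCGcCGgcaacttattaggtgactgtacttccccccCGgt
HOXA13: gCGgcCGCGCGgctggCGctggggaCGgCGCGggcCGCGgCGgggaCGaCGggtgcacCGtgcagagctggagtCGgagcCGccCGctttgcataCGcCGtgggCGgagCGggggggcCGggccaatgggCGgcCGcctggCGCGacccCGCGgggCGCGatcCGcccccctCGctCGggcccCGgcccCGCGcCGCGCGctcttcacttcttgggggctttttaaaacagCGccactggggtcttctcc

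These windows hold 27 CG dinucleotides before HOXA6, 20 before HOXA9 and 40 before HOXA13. The median over all 35116 windows of the same length was 11, with quartiles of 3 and 23, and the HOXA13 window lay at percentile 97.8. RefSeq held 15 such windows for 8 of the 9 genes. Among the genes not printed, HOXA4 had 26, HOXA7 28 and HOXA11 11, the 2 HOXA10 windows 24 and 19, and the 7 HOXA3 windows 0 to 26. The motif TGACAG, bound by MEIS proteins, was found on either strand in 1 of the 15 windows, that of HOXA4, and in 13.0% of all windows. The motif TGATTTA, bound by PBX and HOX proteins together, was found in 1 window, that of HOXA9, against 2.59% of all windows. A match describes the letters and is not evidence of binding.

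HOXA9 had 29.3, 31.1 and 26.1 CPM with the combination, 37.4, 37.0 and 39.3 CPM with MI-3454, 57.4, 53.7 and 60.3 CPM with gilteritinib, and 66.7, 61.4 and 64.0 CPM with DMSO. The 4 groups did not overlap, with the combination lowest and DMSO highest. CPM were scaled by TMM over the 12 libraries. HOXA9 fell by 1.08 on the log2 scale with the combination (SE 0.113, edgeR adjusted p = 4.9e-07) and by 0.70 with MI-3454 (SE 0.113, adjusted p = 0.00084). The value with gilteritinib, -0.13, did not pass (edgeR adjusted p = 0.41).

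HOXA10, whose product like that of HOXA9 acts in myeloid progenitors, had 21.3, 16.8 and 21.5 CPM with the combination and 22.3, 21.3 and 23.7 CPM with MI-3454. It had 41.1, 35.3 and 42.3 CPM with gilteritinib and 45.6, 38.4 and 51.4 CPM with DMSO. The libraries with MI-3454, alone or combined, were all below the other 6, while those with gilteritinib overlapped DMSO. The log2 change was -1.11 with the combination (SE 0.141, edgeR adjusted p = 4.4e-06), -0.95 with MI-3454 (SE 0.140, adjusted p = 0.00045) and -0.15 with gilteritinib (adjusted p = 0.46).

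HOXA7, another gene activated by MLL1 fusions, had 3.35, 4.54 and 3.96 CPM with the combination and 5.07, 4.31 and 6.64 CPM with MI-3454. It had 14.0, 16.9 and 16.1 CPM with gilteritinib and 9.99, 9.52 and 11.5 CPM with DMSO. All gilteritinib libraries stood above all DMSO libraries, and both groups with MI-3454 stood below DMSO. HOXA7 fell by 1.32 with the combination (log2, SE 0.197, edgeR adjusted p = 2.7e-05) and by 0.89 with MI-3454 (SE 0.205, adjusted p = 0.0091). It rose by 0.64 with gilteritinib (SE 0.148, edgeR adjusted p = 0.013), a call lost without DMSO replicate 1 (adjusted p = 0.055) or gilteritinib replicate 3 (adjusted p = 0.059).

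HOXA5, which acts in lung development and in blood progenitors, had 2.23, 1.14 and 1.503 CPM with the combination and 2.43, 2.97 and 2.46 CPM with MI-3454. It had 12.1, 9.75 and 9.70 CPM with gilteritinib and 10.5, 11.7 and 13.2 CPM with DMSO. Each library of the combination was below each of MI-3454, and gilteritinib overlapped DMSO. The fall with the combination was the largest of any HOXA gene, -2.74 on the log2 scale or 6.70-fold (SE 0.241, edgeR adjusted p = 5.9e-08). With MI-3454 HOXA5 fell by 2.11 (log2, SE 0.204, edgeR adjusted p = 1.6e-05), and the value with gilteritinib, -0.12, did not pass (adjusted p = 0.65).

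HOXA6 had 2.49, 2.58 and 2.19 CPM with the combination and 1.99, 2.46 and 2.14 CPM with MI-3454, 2 overlapping groups. It had 7.87, 9.88 and 9.70 CPM with gilteritinib and 10.3, 13.4 and 12.01 CPM with DMSO, groups that did not overlap. With MI-3454 HOXA6 fell by 2.38 on the log2 scale, or 5.19-fold (SE 0.214, edgeR adjusted p = 8.5e-06). The log2 change was -2.21 with the combination (SE 0.208, edgeR adjusted p = 1.3e-07) and -0.35 with gilteritinib (SE 0.167, adjusted p = 0.18), which did not pass.

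HOXA3, needed for the thymus and parathyroid in the embryo, had 2.32, 4.13 and 2.73 CPM with the combination and 1.65, 2.87 and 2.79 CPM with MI-3454. It had 13.6, 17.9 and 11.01 CPM with gilteritinib and 10.2, 13.4 and 12.5 CPM with DMSO. The 6 libraries with MI-3454, alone or combined, were all far below the other 6. HOXA3 fell by 1.90 with the combination (log2, SE 0.226, edgeR adjusted p = 2.2e-06) and by 2.24 with MI-3454 (SE 0.238, adjusted p = 3.4e-05), and gilteritinib gave 0.27 (adjusted p = 0.36).

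HOXA4 was close to the limit of detection, with 2, 6 and 4 counts in the combination libraries, 2, 1 and 5 with MI-3454, 13, 10 and 8 with gilteritinib and 14, 18 and 14 with DMSO. No library of either group with MI-3454 reached the 1.08 CPM of the expression filter, and the gene was tested because all 3 DMSO and 2 gilteritinib libraries did, so it was tested only through the groups where it is high. The log2 change was -1.76 with the combination (SE 0.471, edgeR adjusted p = 0.0043) and -2.33 with MI-3454 (SE 0.522, adjusted p = 0.0080), and -0.49 with gilteritinib did not pass (adjusted p = 0.34). The call with the combination was lost when the library of each group with the highest share of RN7SL1 was left out (log2 change -1.18, edgeR adjusted p = 0.066).

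HOXA11, a gene of limb, kidney and uterus development, had 11.1, 12.4 and 9.70 CPM with the combination and 18.2, 17.3 and 17.7 CPM with MI-3454. It had 35.1, 35.5 and 33.7 CPM with gilteritinib and 28.5, 31.0 and 30.4 CPM with DMSO. The 4 groups were fully separated, with gilteritinib highest and the combination lowest. HOXA11 fell by 1.36 with the combination (log2, SE 0.138, edgeR adjusted p = 3.3e-07) and by 0.70 with MI-3454 (SE 0.129, adjusted p = 0.0022). The change of 0.25 with gilteritinib did not pass without a replicate block (SE 0.107, edgeR adjusted p = 0.14), but passed without the library of each group highest in RN7SL1 (0.26, adjusted p = 0.049).

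HOXA13, the gene of the distal limb and the genital tract, had 8.93, 10.5 and 7.93 CPM with the combination and 6.40, 7.38 and 8.04 CPM with MI-3454. It had 11.7, 9.63 and 12.9 CPM with gilteritinib and 7.65, 6.41 and 10.6 CPM with DMSO. Each treated group overlapped DMSO. The log2 change was 0.24 with the combination (SE 0.201, edgeR adjusted p = 0.32), -0.11 with MI-3454 (SE 0.216, adjusted p = 0.77) and 0.52 with gilteritinib (SE 0.195, adjusted p = 0.094), and none passed without a replicate block.

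**Figure D1:**
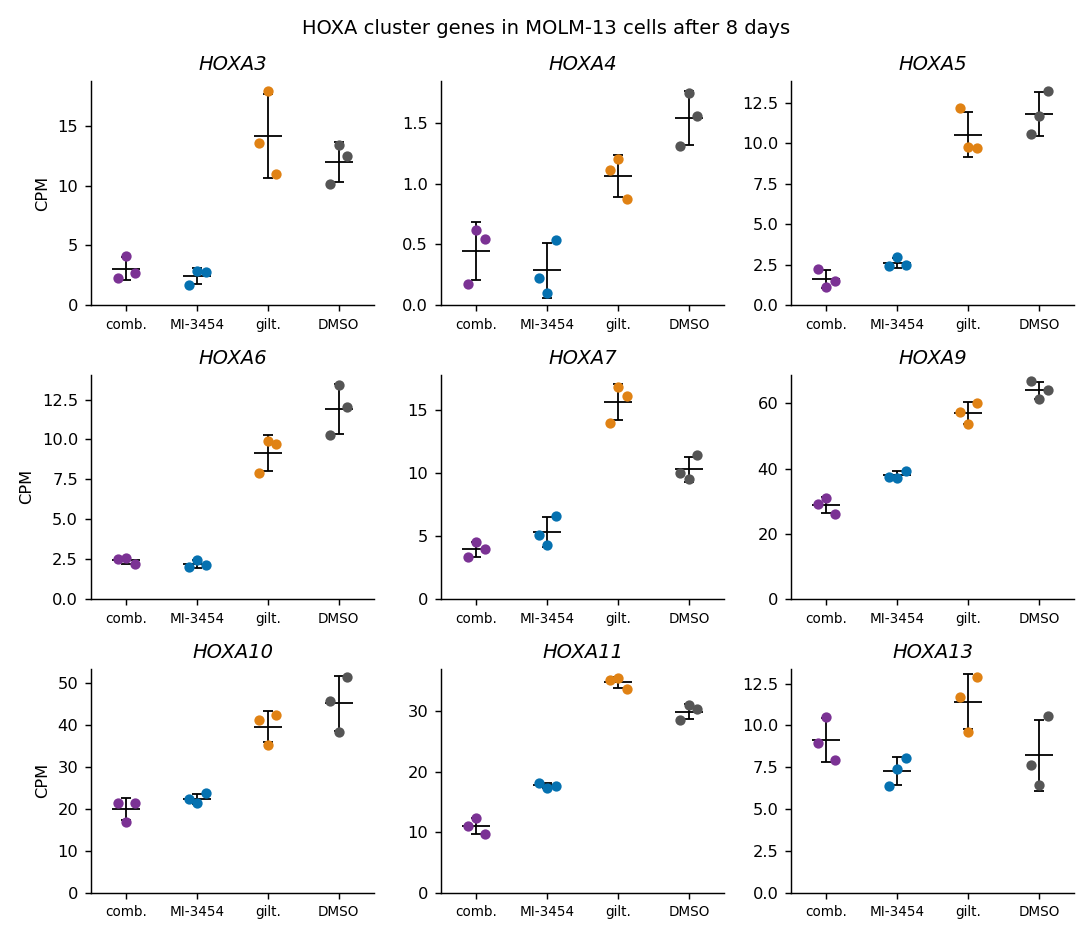
Level of each HOXA gene in each library, in TMM-scaled CPM on a linear axis starting at 0, for the combination, MI-3454, gilteritinib and DMSO; points are libraries, and bars give the mean and SD (n = 3). HOXA9 stood at 26.1 to 31.1 CPM with the combination against 61.4 to 66.7 CPM with DMSO, whereas HOXA13 libraries overlapped between each treatment and DMSO.

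With the combination, 8 of the 9 HOXA genes fell and none rose, beside 28.4% lower and 29.2% higher of the 13972 genes tested. With MI-3454, 8 of the 9 fell and none rose, beside 8.95% lower and 10.1% higher of all genes tested. With gilteritinib none fell and 1, HOXA7, rose without a replicate block, beside 8.18% lower and 6.92% higher. The 8 that fell include HOXA4, which passed the filter on low counts only through gilteritinib and DMSO, so that 7 of the 8 other genes fell with the combination and 7 of 8 with MI-3454. Without the library of each group highest in RN7SL1, 7 of the 9 fell with the combination, HOXA4 being lost, and 8 with MI-3454. The median log2 change of the 9 genes was -1.36 with the combination, -0.95 with MI-3454 and -0.12 with gilteritinib, while that of all genes tested was -0.00066 with the combination, 0.0032 with MI-3454 and -0.00064 with gilteritinib. In the directions with no call, none of the 9 genes had an unadjusted p under 0.05 in edgeR and none was called by DESeq2. The 3 comparisons share the DMSO libraries. The call was a Benjamini-Hochberg adjusted p under 0.05 in edgeR's quasi-likelihood test.

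The labels give no pairing. A block by replicate number was tried for gilteritinib and DMSO, where same-numbered deviations from the group means correlated at 0.143, 0.385 and 0.11. Pairing was not established, since gilteritinib replicate 1 correlated at 0.210 with DMSO replicate 3. The value of 0.385 joined gilteritinib replicate 2 and DMSO replicate 2, each the highest in RN7SL1 of its group. MI-3454 replicate 3, also the highest of its group, correlated at 0.508 with DMSO replicate 2. Blocked by replicate number, HOXA7 rose by 0.63, HOXA11 by 0.25 (edgeR adjusted p = 0.033) and HOXA13 by 0.52 (adjusted p = 0.0046). That made 3 genes higher and none lower with gilteritinib, beside 17.7% higher and 17.6% lower of all genes under the same block.

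By position, HOXA3 to HOXA6 changed by -2.38 to -2.11 on the log2 scale with MI-3454, and HOXA7 to HOXA11 by -0.95 to -0.70, so the ranges of these neighbouring stretches did not meet. With the combination the ranges were -2.74 to -1.76 for HOXA3 to HOXA6 and -1.36 to -1.08 for HOXA7 to HOXA11. With gilteritinib they overlapped, at -0.49 to 0.27 and -0.15 to 0.64. The stretches were divided with these values in view and the division was not tested.

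**Figure D2:**
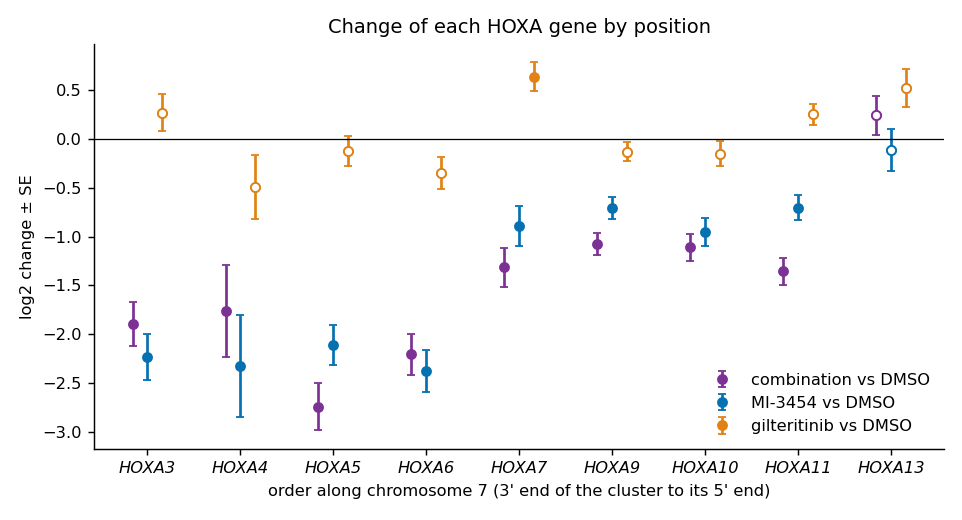
Log2 change against DMSO (vertical axis) of each HOXA gene in its order along chromosome 7, with SE bars, for the combination, MI-3454 and gilteritinib; filled points passed edgeR at an adjusted p under 0.05 and open points did not. The 4 genes HOXA3 to HOXA6 lay at or below -1.76 with the combination and MI-3454, and HOXA13 was open for all treatments in these fits without a replicate block.

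Levels were compared between genes as CPM per kb of annotated exon, with bases shared between genes kept in the length. HOXA9 had the highest level in every group, 9.51 ± 0.83 CPM per kb with the combination, 12.5 ± 0.41 with MI-3454, 18.9 ± 1.09 with gilteritinib and 21.2 ± 0.88 with DMSO (SD, n = 3 each). HOXA4 had the lowest, 0.255 ± 0.137 CPM per kb with the combination, 0.164 ± 0.128 with MI-3454, 0.608 ± 0.0982 with gilteritinib and 0.880 ± 0.127 with DMSO. In DMSO cells HOXA11 followed HOXA9 at 13.0 ± 0.57 CPM per kb, then HOXA10 at 12.2 ± 1.75, values that differed by less than the SD. The order of HOXA10 and HOXA11 in DMSO turned, to 13.5 and 13.0 CPM per kb, without exon bases shared on the same strand. Without those bases HOXA9 had 25.1 and HOXA4 1.27 CPM per kb in DMSO, still the highest and the lowest. Levels over the full length are thus too low for genes with shared bases.

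The remaining genes followed in DMSO cells with 9.26 ± 1.23 CPM per kb for HOXA6, 6.92 ± 0.79 for HOXA5, 4.28 ± 0.42 for HOXA7, 2.79 ± 0.39 for HOXA3 and 1.61 ± 0.42 for HOXA13. In gilteritinib cells HOXA7 reached 6.50 ± 0.61 CPM per kb, above HOXA5 at 6.17 ± 0.82 by less than the SD. With the combination HOXA13, at 1.79 ± 0.26 CPM per kb, stood at rank 5 of the 9, next to HOXA6 at 1.88 ± 0.16 and HOXA7 at 1.64 ± 0.25, less than an SD away. Its rank was 8 in DMSO cells.

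**Figure D3:**
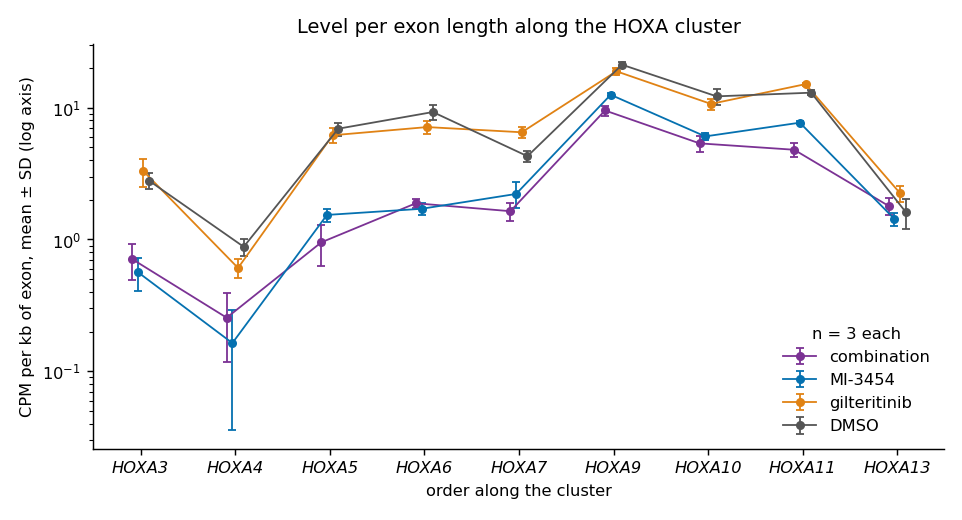
Mean level with SD in CPM per kb of exon on a log axis, for the 9 HOXA genes in their order along the cluster (n = 3 per group). HOXA9 is the peak in each group, the combination and MI-3454 lie lowest from HOXA3 to HOXA11, and the 4 group means come closest together at HOXA13, between 1.43 with MI-3454 and 2.24 CPM per kb with gilteritinib.

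Summed over the 9 genes the level was 26.9 ± 1.41 CPM per kb with the combination, 33.9 ± 1.35 with MI-3454, 70.5 ± 0.82 with gilteritinib and 72.0 ± 3.34 with DMSO (SD, n = 3 each). HOXA3 to HOXA6 supplied 14.1% ± 0.17 of this sum with the combination, 11.7% ± 1.38 with MI-3454, 24.4% ± 1.68 with gilteritinib and 27.5% ± 2.72 with DMSO. HOXA9 to HOXA11 supplied 73.1% ± 1.26 with the combination, 77.5% ± 1.59 with MI-3454, 63.2% ± 1.82 with gilteritinib and 64.3% ± 2.46 with DMSO. Both shares with the combination and with MI-3454 were outside the range of DMSO. The exact permutation test, two-sided, gave p = 0.1, the smallest that 3 against 3 libraries can give, so none could reach 0.05. HOXA7 and HOXA13 are in neither stretch. The stretches were set with the log2 changes in view, so their shares restate those changes and are not separate support.

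HOXA13 took 6.65% ± 0.63 of the sum with the combination, 4.22% ± 0.36 with MI-3454, 3.18% ± 0.42 with gilteritinib and 2.23% ± 0.48 with DMSO. The combination and MI-3454 did not overlap DMSO (exact permutation p = 0.1), and gilteritinib did (exact permutation p = 0.2). Its own CPM did not pass the test against DMSO with the combination or with MI-3454, while the other 8 genes fell with both. HOXA7 took 9.22% ± 0.89 with gilteritinib against 5.93% ± 0.34 with DMSO, without overlap.

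**Figure D4:**
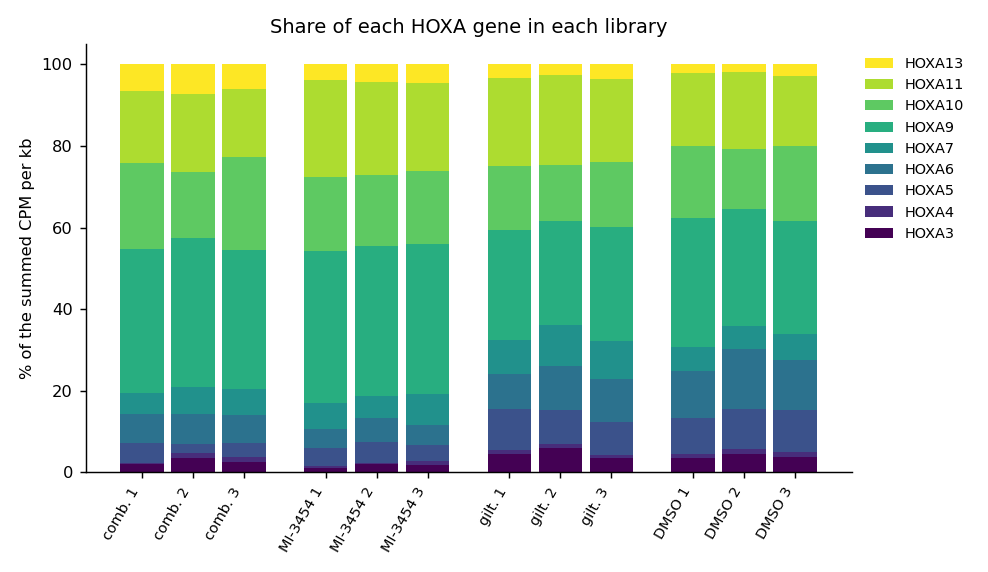
Share of each HOXA gene in the summed CPM per kb of the 9 genes, in percent, as stacked bars for the 12 libraries. The bottom 4 bands, HOXA3 to HOXA6, fill 13.9% to 14.3% with the combination against 24.8% to 30.3% with DMSO, and the top band, HOXA13, is widest with the combination.

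Set against MI-3454 alone, the combination gave lower HOXA9 (log2 change -0.36, SE 0.107, edgeR adjusted p = 0.025) and HOXA11 (-0.65, SE 0.139, adjusted p = 0.0051). These are 2 of the 9 genes called lower, and none was called higher (0 at an unadjusted p under 0.05 in edgeR, 0 in DESeq2), beside 15.1% lower and 14.1% higher of all genes tested. HOXA11 passed in all 13 alternative settings, whereas HOXA9 missed the threshold in 6 of them, with adjusted p up to 0.11. HOXA5 had -0.63 (SE 0.313) and did not pass, although its libraries did not overlap (edgeR adjusted p = 0.15). Of all called genes 48.4% were higher with TMM scaling and 63.1% when libraries were scaled by their total counts alone.

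Against gilteritinib, the combination lowered 8 of the 9 genes, with HOXA13 at -0.27 not passing (edgeR adjusted p = 0.15), beside 30.3% lower and 30.1% higher of all genes tested. The log2 falls ran from -0.94 for HOXA9 to -2.61 for HOXA5. With total-count scaling the share of called genes that were higher was 61.3%, against 49.9% with TMM. MI-3454 against gilteritinib lowered all 9 genes, beside 7.43% lower and 9.96% higher of all genes tested. HOXA13 passed here at -0.64 (SE 0.171, edgeR adjusted p = 0.024), and it missed the threshold in 4 of 13 alternatives, those without gilteritinib replicate 1 or 3 or MI-3454 replicate 1 or 2. Both counts against gilteritinib include HOXA4, which passed the filter on low counts only through gilteritinib and DMSO. The HOXA4 call against gilteritinib was lost in 7 of 13 alternatives for the combination and in 7 for MI-3454. DESeq2 called 7 of the 9 genes lower for the combination against gilteritinib and 8 for MI-3454.

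The order of the 4 groups differed between genes. HOXA5, HOXA9 and HOXA10 were lowest with the combination, followed by MI-3454, gilteritinib and DMSO. The step between gilteritinib and DMSO did not pass the test for any of them, and that between the combination and MI-3454 passed for HOXA9 alone, with -0.63 for HOXA5 (edgeR adjusted p = 0.15) and -0.15 for HOXA10 (adjusted p = 0.42). HOXA3, HOXA7, HOXA11 and HOXA13 were highest with gilteritinib, where HOXA7 passed against DMSO without the replicate block and HOXA7, HOXA11 and HOXA13 with it. HOXA3, HOXA4 and HOXA6 were lowest with MI-3454, below the combination by 0.35, 0.58 and 0.17 on the log2 scale, none of which passed. For HOXA13 no neighbouring groups in the order passed the test without the block.

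Whether the log2 changes of the single agents added up in the combination was tested by the interaction term of a fit to all 12 libraries. HOXA7 changed by -0.89 with MI-3454 and 0.64 with gilteritinib, a sum of -0.26, while the combination gave -1.32. The interaction was -1.06 (SE 0.265, edgeR adjusted p = 0.014). HOXA11 had log2 changes of -0.70 with MI-3454 and 0.25 with gilteritinib, a sum of -0.45, against -1.36 with the combination, and its interaction was -0.90 (SE 0.152, adjusted p = 0.0010). These were 2 of the 9 genes, beside 8.74% lower and 6.55% higher of all genes tested.

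Without the library highest in RN7SL1 in each group, the HOXA7 interaction was -0.60 (edgeR adjusted p = 0.16) and did not pass, whereas the HOXA11 term passed in all 18 alternatives. For HOXA10 the sum of the single changes was -1.11 and the combination gave -1.11. HOXA5 had an interaction of -0.52 and HOXA4 of 1.06, neither of which passed. Of all genes with a called interaction, 42.8% were positive with TMM and 57.9% with total-count scaling, which moved the median of all genes by 0.13 on the log2 scale. It moved that median by 0.10 for the combination against DMSO and 0.12 against gilteritinib.

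HOXA2, next to HOXA3 in the cluster, had 31 counts in all libraries and was not tested. Of 7 noncoding genes of the cluster, 3 were tested. HOXA10-AS, transcribed from the strand opposite the HOXA9 and HOXA10 genes, had 8.67, 8.05 and 5.06 CPM with the combination, 9.93, 9.43 and 8.9998 with MI-3454, 15.5, 20.6 and 16.6 with gilteritinib, and 12.4, 12.4 and 11.2 with DMSO. The groups did not overlap, with gilteritinib highest. HOXA10-AS fell by 0.63 with the combination (log2, SE 0.189, edgeR adjusted p = 0.0090) and rose by 0.57 with gilteritinib (SE 0.151, adjusted p = 0.024), and its interaction was -0.91 (adjusted p = 0.022). Its change of -0.30 with MI-3454 did not pass (edgeR adjusted p = 0.23). HOXA11-AS and HOXA-AS3 did not pass against DMSO.

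Of 7 flanking genes tested, 1 fell with the combination, CBX3 (log2 change -0.77), which encodes a heterochromatin protein, and 2 rose, SKAP2 (0.28), an adaptor protein gene, and JAZF1 (1.48), beside 28.4% lower and 29.2% higher of all genes tested. Of the 2 that rose, DESeq2 called 1. With MI-3454 only JAZF1 of these 7 passed, at 1.49, beside 10.1% higher of all genes tested, and with gilteritinib none did (1 at an unadjusted p under 0.05 in edgeR, 0 in DESeq2). JAZF1 was low, with 2.48 to 3.09 CPM with the combination and 2.46 to 3.21 with MI-3454. It had 0.856 to 1.69 CPM with gilteritinib and 0.556 to 1.31 with DMSO. All libraries with MI-3454, alone or combined, reached the 1.08 CPM of the expression filter, and most of the others did not. JAZF1 was thus tested only through the groups where it is high. HIBADH, the nearest tested gene beyond HOXA13, had log2 changes of -0.28 with the combination, -0.22 with MI-3454 and -0.07 with gilteritinib, and none of these passed.

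**Figure D5:**
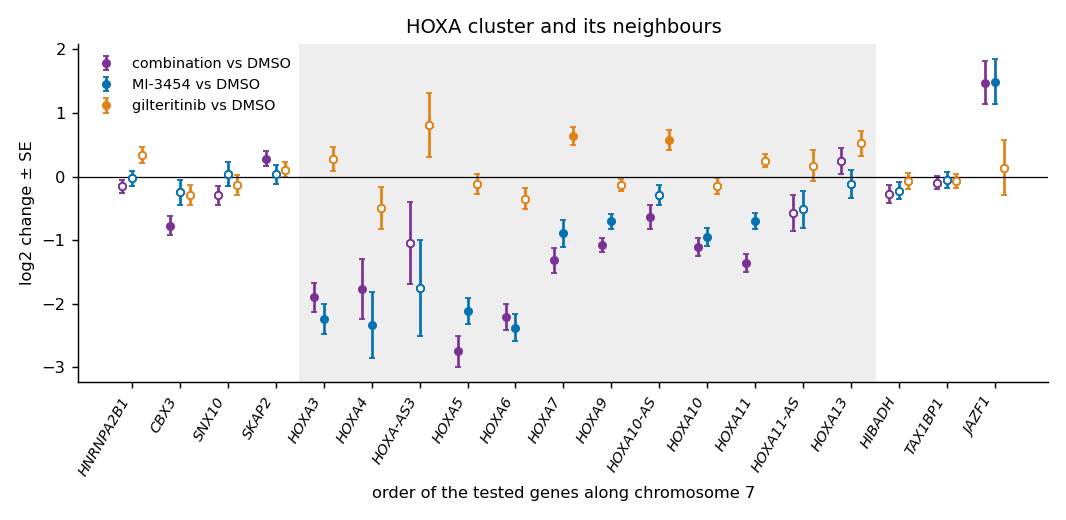
Log2 change against DMSO with SE for tested genes of the HOXA region in chromosome order, for the combination, MI-3454 and gilteritinib; grey marks the stretch from HOXA3 to HOXA13, and filled points passed edgeR at an adjusted p under 0.05. HOXA3 to HOXA11 lie below 0 with the combination and MI-3454. JAZF1, tested only through the groups where it is high, lies at 1.48 and 1.49.

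The other HOX clusters gave almost no reads, with 10 counts over the 10 HOXB genes, 14 over the 9 HOXC genes and 1 over the 9 HOXD genes in the 12 libraries together. None of them was tested. HOX proteins bind DNA together with TALE homeodomain cofactors, of which 8 of 11 were tested. With the combination 5 fell and 1 rose, beside 28.4% lower and 29.2% higher of all genes tested. With MI-3454 2 fell, beside 8.95% lower, and with gilteritinib 1 fell, which DESeq2 did not call, and 1 rose, beside 8.18% lower and 6.92% higher. The median log2 change of the 8 was -0.65 with the combination, -0.40 with MI-3454 and 0.23 with gilteritinib. MEIS1, the partner of HOXA9 in leukaemia, had 4.55, 6.61 and 3.83 CPM with the combination, 12.02, 11.4 and 9.21 with MI-3454, 93.1, 94.9 and 90.9 with gilteritinib, and 69.9, 63.5 and 75.3 with DMSO. All 4 groups were separated. MEIS1 fell by 3.71 with the combination (log2, edgeR adjusted p = 1.2e-11) and by 2.62 with MI-3454 (adjusted p = 2.0e-07) and rose by 0.46 with gilteritinib (adjusted p = 0.0091). PBX3, another HOXA9 partner, fell by 1.98 with the combination and by 1.14 with MI-3454. MEIS3 fell by 1.61 and TGIF2 fell by 0.68 with the combination, and the gene that rose was PBX2, at 0.59. MEIS3 was low, with 9, 3 and 4 counts in the combination libraries and 14, 21 and 19 with DMSO. No combination library reached the 1.08 CPM of the expression filter. MEIS3, one of the 5 that fell, was thus tested only through groups where it is higher.

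Of 19 genes for chromatin regulators that act at the cluster, 9 fell and 1 rose with the combination, beside 28.4% lower and 29.2% higher of all genes tested. With MI-3454 3 fell, beside 8.95% lower, and with gilteritinib none passed (2 at an unadjusted p under 0.05 in edgeR, 0 in DESeq2). The median log2 change of the 19 was -0.26 with the combination, -0.14 with MI-3454 and -0.0090 with gilteritinib. KMT2A rose by 0.76 with the combination, and BMI1, a Polycomb gene, fell by 0.98 with it and by 0.94 with MI-3454. DOT1L, the H3K79 methyltransferase recruited by MLL1 fusions, fell by 0.82 with the combination and by 0.56 with MI-3454. WDR5, a core subunit of MLL complexes, fell by 0.64 with the combination and had -0.25 with MI-3454, which did not pass. MEN1, which encodes menin and is named after its values were seen, fell by 0.36 with the combination and had -0.08 with MI-3454, which did not pass. Counts per gene do not separate KMT2A from the fusion.

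Genes known as targets of HOXA9 or MEIS1 were tested for 11 of 16. With the combination 6 fell and 2 rose, beside 28.4% lower and 29.2% higher of all genes tested. With MI-3454 5 fell and 2 rose, beside 8.95% lower and 10.1% higher, and with gilteritinib 3 fell and 1 rose, beside 8.18% lower and 6.92% higher. The median log2 change of the 11 was -0.36 with the combination, 0.099 with MI-3454 and -0.0025 with gilteritinib. MEF2C, a transcription factor gene active in myeloid leukaemia, had log2 changes of -4.18 with the combination, -2.35 with MI-3454 and -0.32 with gilteritinib, the last of which did not pass. BCL2, the survival gene, fell in all 3 comparisons, with log2 changes of -2.23 with the combination, -1.30 with MI-3454 and -0.44 with gilteritinib. PIM1 encodes a kinase also induced by FLT3 signalling, and its log2 changes were -3.79 with the combination, -1.76 with MI-3454 and -4.20 with gilteritinib, all passing. FLT3, the receptor gene whose product gilteritinib inhibits, also passed in each, at -1.87 with the combination, -1.61 with MI-3454 and -0.42 with gilteritinib. The 2 genes that rose with the combination and with MI-3454 were SYK and IGF1R, named after their values were seen, and SOX4 rose by 0.40 with gilteritinib.

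Across the 12 libraries, which are 4 groups of 3 and share their group differences, the log2 CPM of HOXA3 to HOXA11 correlated with each other at Pearson r of 0.71 to 0.97. HOXA13 correlated with them at 0.23 to 0.49. Over 9778 genes with a mean of at least 5 CPM, the protein-coding genes outside the cluster with the profile most like HOXA9 were EGR3 (r = 0.993), KDM1A (0.990) and CSPG4 (0.988). Those most like HOXA5 were JCAD (0.993), WNK1 (0.991) and NAT8L (0.985). HOXA7 was followed by NOG (0.975), DYNC1I1 (0.974) and CLNS1A (0.966), and HOXA10 by ANXA2R (0.970), TTC28 (0.969) and FLT3 (0.968). The size of the change differed within such pairs: KDM1A, the gene of a histone demethylase, had 82.1 to 87.8 CPM with the combination against 126 to 134 with DMSO, while EGR3 had 0.137 to 0.516 CPM with the combination against 23.4 to 29.1 with DMSO.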

How the data were processed

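RNA was measured in 12 MOLM-13 libraries, 3 in each of 4 groups taken from the titles. The deposited files hold whole-number counts per gene in HTSeq's format, with no normalization. Tools listed in the submitters' processing notes are HTSeq 0.11.2, STAR 2.7.1a, cutadapt 2.1 and DESeq2, with the build GRCh38; the annotation release is not given in the sources used here. Of 427 genes wholly covered by exons of the opposite strand only, 63.7% had a count, against 1.04% of 480 covered on their own strand, so the counting separated strands and left out bases shared on one strand. The HTSeq summary counts were kept out of library sizes. Among them were 15.6% to 36.5% of uniquely placed reads assigned to no gene feature and 4.65% to 10.3% ambiguous ones.

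Models were fitted with edgeR 4.0.16 (limma 3.58.1, R 4.3.3). Of 30849 genes with a count, 13972 passed filterByExpr over the 12 libraries. Each pair of groups had its own quasi-likelihood fit (glmQLFit, glmQLFTest) with TMM scaling among 6 libraries and Benjamini-Hochberg adjustment over all genes tested. The interaction was fitted to 12 libraries. Exon lengths came from GENCODE 29 and symbols from a table of names that matched 60340 genes. DESeq2 1.42.0, other scalings, no filter, 1 fit for all libraries, a replicate block and left-out libraries were alternatives. The fits were tested on simulated counts.

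The HOXA genes, the lists and the tests were chosen with earlier results of these data known. All 9 HOXA genes are named, up to 4 called members of each other list with the largest change, and members not called with their values; the 3 genes most like HOXA5, HOXA7, HOXA9 and HOXA10 are those with the highest Pearson r of log2 CPM (prior count 2). The block by replicate number was reported with the results only where all 3 same-numbered correlations of deviations exceeded 0.1. That held for gilteritinib against DMSO alone, and it does not establish that the libraries were paired. Replicates of a group differed by more than sampling noise (chi-square per degree of freedom 2.13 to 29.1). Promoter sequences are RefSeq's. Some genes of the lists are not reported here.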

Additional observations from a re-analysis of the deposited data

Results flagged for a closer look

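The combination departed from the sum of the single-agent log2 changes by a tested interaction for HOXA7 (-1.06), HOXA11 (-0.90) and the antisense gene HOXA10-AS (-0.91). The edgeR adjusted p was 0.014 for HOXA7, 0.0010 for HOXA11 and 0.022 for HOXA10-AS. HOXA7 had a log2 change of -1.32 with the combination and 0.64 with gilteritinib alone. Its interaction did not pass without the library of each group highest in RN7SL1 (-0.60, edgeR adjusted p = 0.16). HOXA11 had -1.36 with the combination and 0.25 with gilteritinib, which did not pass without the replicate block and passed with it (edgeR adjusted p = 0.033). HOXA10-AS had -0.63 with the combination, 0.57 with gilteritinib and -0.30 with MI-3454, the last of which did not pass (edgeR adjusted p = 0.23). The HOXA10-AS interaction was not rerun under the alternative settings.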

How the results depend on the processing

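Of the 38 calls of a HOXA gene over the 7 comparisons, 31 held in every alternative run, including all 8 of MI-3454 against DMSO. With the replicate number as a block, all genes called numbered 4928 for gilteritinib against DMSO in place of 2110. Whether these libraries are paired was not established. With the block they numbered 1678 for MI-3454 against DMSO in place of 2658. For the combination against MI-3454, 1 HOXA gene in place of 2 was lower with it. Same-numbered libraries of MI-3454 and DMSO correlated at -0.392 to 0.199. HOXA genes higher with gilteritinib were 3 with the block, and 2 without the filter or without the library of each group highest in RN7SL1, in place of 1. Without those RN7SL1 libraries the genes called were 4250 for gilteritinib against DMSO, 5133 for MI-3454 against gilteritinib in place of 2429 and 3393 for the interaction in place of 2136, with 1 HOXA gene. Total-count scaling left 1 HOXA gene lower for the combination against MI-3454.

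Leaving out 1 library at a time gave 0 to 2 HOXA genes higher with gilteritinib and 1 to 2 lower for the combination against MI-3454. All genes called ranged over 1243 to 3985 for gilteritinib against DMSO, the highest without DMSO replicate 2, and over 2456 to 5074 for the combination against MI-3454. They ranged over 1589 to 4690 for MI-3454 against gilteritinib, the highest without MI-3454 replicate 3, and over 1305 to 2698 for the interaction. The causes were not tested.

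Signs turned for values that had not passed. HOXA13 with MI-3454 ranged from -0.26 to 0.098 over left-out libraries. The interaction of HOXA10 was 0.016 with DESeq2, 0.016 with RLE, 0.13 with total counts, 0.011 without the filter and 0.037 without the RN7SL1 libraries, and that of HOXA13 was 0.020 without those. Over left-out libraries the interaction ranged over -0.20 to 0.29 for HOXA3 and -0.086 to 0.12 for HOXA10. Differences in share from DMSO ranged, in percentage points, with the combination from -0.42 to 0.026 for HOXA4, -0.14 to 0.66 for HOXA7 and -0.92 to 0.34 for HOXA11. With MI-3454 they ranged from -0.056 to 1.13 for HOXA7 and -0.12 to 1.69 for HOXA10, and with gilteritinib from -2.06 to 0.29 for HOXA9 to HOXA11. HOXA4, with 8 to 46 counts per group, is limited by depth.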
